A study of Populus ussuriensis with 12 samples.

Results

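Root tips of the poplar Populus ussuriensis were compared in a layout of 2 genotypes and 2 media, and the question asked here is whether the effects of genotype and osmotic stress simply combine. The quantity described is the interaction: the response to PEG of plants that overexpress PuC3H35 (OE), less the response of wild-type plants (WT). All 12 libraries of the series enter it, 3 each from OE with PEG, OE without PEG, WT with PEG and WT without PEG. It was computed on log2(FPKM + 1) for the 22640 of 34699 genes whose FPKM averaged 1 or more across all 12 libraries. FPKM is the number of reads of a gene scaled to its length and to library depth.

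In vitro plants that were 1 week old spent 7 days on diluted Murashige and Skoog agar that held 6% PEG6000 or no PEG, and RNA came from the last 0.5 cm of the root. The sources used here give neither the promoter of the transgene nor the number of plants behind a library. Each of the 6 OE libraries has its own genotype number, running from PuC3H35 up to PuC3H40, although the series title names a single genotype. All 6 were treated as one genotype, and these labels do not settle how many transgenic lines they come from. Nothing in the labels ties replicates to separate plants. The p-values therefore reflect only how far these libraries spread, and that spread may be technical. Depth recovered from the FPKM steps was 27124970 to 37106356 reads per library, and a gene of the median length of 1825 bp had 49.5 to 67.7 reads at an FPKM of 1.

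Polyethylene glycol (PEG) of high molecular weight lowers the water potential of the medium without entering the cells, and so imposes a water deficit. Roots answer a water deficit through abscisic acid and other signals, with changed transcription of genes for osmolytes, protective proteins, transporters and cell wall synthesis. CCCH zinc finger proteins bind nucleic acids through repeated zinc-binding motifs, and several plant members act in stress and hormone responses. The table pairs its identifiers with no gene names, so identifiers are given without a function, no pathway was counted, and the tissue label and the level of PuC3H35 were not checked against marker genes.

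Additivity has a plain meaning on a log scale. If the transgene alone multiplied a transcript by one factor and PEG alone by another, an additive gene would show the product of both factors in OE under PEG. A value above 0 means that OE under PEG held more transcript than that product, and a value below 0 means that it held less. Factors and products are those of FPKM + 1, with the 1 taken off again where a product is given in FPKM, so for low genes they differ from ratios of the FPKM themselves. In whole root tips, a change in the number of cells that express a gene and a change in RNA per cell cannot be told apart.

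PEG and genotype each accounted for more of the variation than their interaction, but the interaction was larger than the spread between replicates. Of the squared deviations summed over all 22640 genes, PEG took 49.5%, genotype 32.1%, the interaction 13.3% and the differences between replicates 5.2%. The interaction was the largest of the 3 effects in 4798 genes (21.2%), PEG in 9593 and genotype in 8249. With limma and Benjamini-Hochberg adjustment over the 22640 genes, 12873 interactions were called at an adjusted p under 0.05 (56.9%), 6300 above 0 (27.8%) and 6573 below 0 (29%). The median absolute interaction was 0.31 over all genes and 0.51 over the called ones.

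Most called departures were small. Of the 12873, 1065 were under 0.25 in size, 5181 lay between 0.25 and 0.5 and 4616 between 0.5 and 1. At 2-fold, which is 1 log2 unit, 895 genes lay above 0 (3.95% of those tested) and 1116 below (4.93%). Of the genes with an interaction of 0.25 to 0.5, whose median standard error was 0.10, 78.6% were called, against 11.4% of those under 0.25. With a pseudocount of 0.1 the 2-fold count below 0 was 1780, and with limma voom on the reads recovered from the FPKM it was 1811. In 5351 genes (23.6%) all 9 differences between an OE PEG and an OE library without PEG lay above all 9 such differences in WT, and in 6003 (26.5%) all lay below. Among the 2011 genes called 2-fold, 1993 (8.8% of those tested) were separated in this way.

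The balance of the 2 directions followed the scaling between libraries. Interactions above 0 made up 48.9% of those called, 50.1% with median-of-ratios scaling and 48.4% with quantile normalization. They made up 35.2% after rescaling every library to the same FPKM sum, which moved the median interaction of all genes to -0.11, against 0.01. Of the 2011 genes called 2-fold, 2010, 2011 and 2007 stayed called in the same direction under the equal sum, median-of-ratios and quantile settings. Such a call needs no 2-fold size. The 2-fold counts were 731 above 0 and 1463 below with the equal sum, against 895 and 1116. They were 909 and 1101 with median-of-ratios scaling, and 997 and 1103 with quantile normalization.

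**Figure D1:**
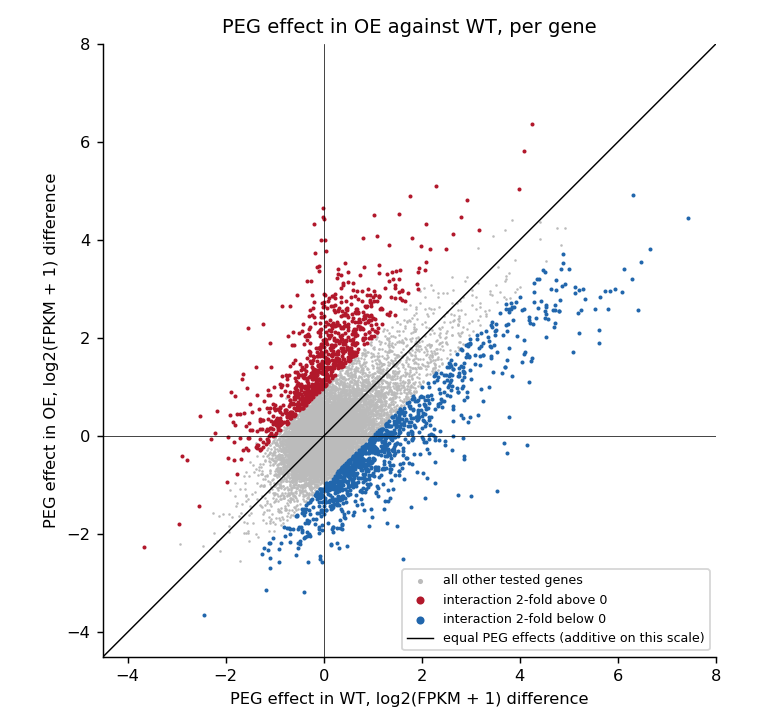
PEG effect in OE (vertical axis) against PEG effect in WT (horizontal axis), both as log2(FPKM + 1) differences, for each of 22640 genes; genes on the diagonal are additive on this scale. The 895 red points above the diagonal and the 1116 blue points below it are the interactions called at 2-fold, and points in the upper left and lower right corners moved in opposite directions in the 2 genotypes.

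Departures above 0 were mostly genes for which OE under PEG stood alone at the top. Among the 895 genes at 2-fold above 0, OE PEG had the highest of the 4 group means in 781 (87.3%). The contrast itself favours OE PEG or WT without PEG as the highest group there, and no share over all tested genes is given for comparison. In 626 (69.9%) it stood above the other 3 groups by more than the whole range of those 3 on the log scale. That share was smaller under 2 other settings. With a pseudocount of 0.1 OE PEG stood alone in 587 of 1047 genes at 2-fold above 0, and with limma voom in 604 of 1117. In those 626 the median FPKM was 19.5 in OE PEG and 3.73 in OE without PEG, against 2.85 in WT PEG and 2.28 in WT without PEG. The gap between OE PEG and the other 3 groups is the rule by which the 626 were picked. Over all tested genes, called or not, OE PEG stood alone at the top in 2576 (11.4%). That placement can occur only with an interaction above 0. The share over all tested genes includes genes below 0 and so is no like baseline for the 69.9%.

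In the remaining departures above 0 another group, or no single group, stood apart. WT PEG stood alone at the bottom in 61 of the 895 genes (6.82%), WT without PEG stood alone at the top in 43 (4.8%), and OE without PEG stood alone at the bottom in 15 (1.68%). Over all tested genes these shares were 8.83%, 6.54% and 1.8%, no lower than among the 895. In 150 (16.8%) no single group stood apart, against 45.9% of all tested genes. A departure above 0 arises from high values in OE PEG or WT without PEG, or from low values in the other 2 groups. Which groups can stand apart is therefore fixed by the contrast, while their shares are not. The shares over all tested genes include genes with an interaction below 0, which cannot hold these single-group placements.

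Departures below 0 had no single leading group of that kind. WT PEG had the highest group mean in 737 of the 1116 genes (66%), OE without PEG in 253 (22.7%) and OE PEG in 99 (8.87%). Below 0 the contrast itself favours WT PEG or OE without PEG as the highest group. Shares of highest and lowest groups over all tested genes are not given. WT without PEG was lowest in 609 (54.6%) and OE PEG in 484 (43.4%). No single group stood apart in 487 (43.6%), while OE PEG stood alone at the bottom in 207 (18.5%; 384 with a pseudocount of 0.1), WT PEG alone at the top in 188 (16.8%) and WT without PEG alone at the bottom in 178 (15.9%). Over all tested genes no group stood apart in 45.9%, OE PEG stood alone at the bottom in 11.7%, WT PEG alone at the top in 4.47% and WT without PEG alone at the bottom in 5.81%. Each of these single-group placements can occur only with an interaction below 0. The shares over all tested genes include genes above 0, so a higher share among the 1116 is no sign of enrichment.

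The most frequent order of group means below 0, in 273 genes (24.5%), was WT PEG highest, then OE PEG, OE without PEG and WT without PEG. Both genotypes thus had higher means under PEG in those genes, with OE inside the WT range on both media. The next order, in 189 genes (16.9%), had WT PEG highest and OE PEG lowest, with both groups without PEG between them. Above 0 the 2 leading orders both began with OE PEG and OE without PEG. They were followed by WT PEG and WT without PEG in 226 genes (25.3%), and by the reverse in 205 (22.9%). The contrast favours some orders over others, and their shares over all tested genes are not given.

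**Figure D2:**
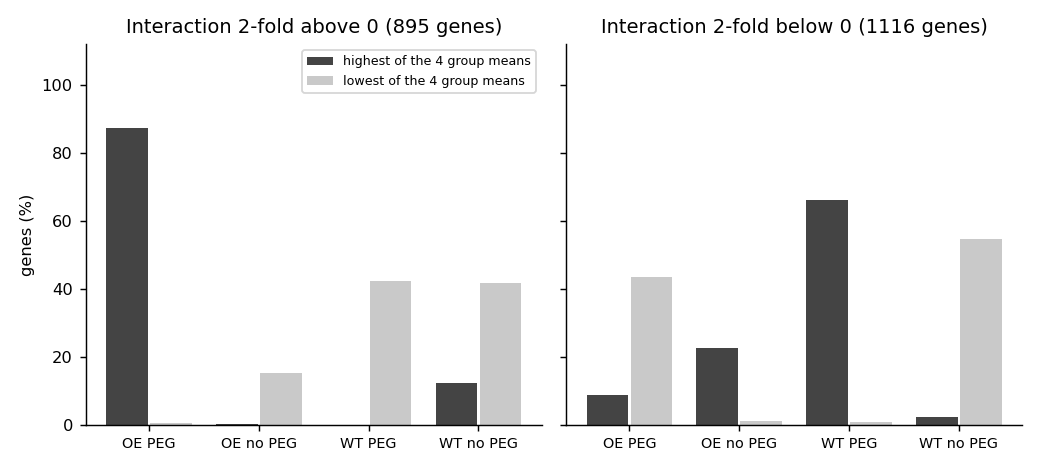
Percent of genes (vertical axis) in which each of the 4 groups (horizontal axis) had the highest (dark bars) or the lowest (light bars) group mean, for the 895 genes with an interaction 2-fold above 0 (left) and the 1116 genes 2-fold below 0 (right). OE PEG was highest in 87.3% of the genes on the left, while WT PEG was highest in 66% and WT without PEG lowest in 54.6% of those on the right. The contrast itself favours these placements.

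The interaction is read below against the effects it is made of, each tested in the same limma fit. PEG effects were called in 64.6% of the 22640 genes in OE, 30.5% raised and 34.1% lowered, and at 2-fold in 7.46% and 2.35%. In WT they were called in 64.6% as well, 29.9% raised and 34.7% lowered, and at 2-fold in 7.1% and 1.17%. OE and WT differed under PEG in 68.3% of genes, with OE higher in 36.1% and lower in 32.2%, and at 2-fold in 5.95% and 3.37%. Without PEG they differed in 55%, with OE higher in 31.7% and lower in 23.4%, and at 2-fold in 3.9% and 0.769%.

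Sorted by their PEG effects at 2-fold, the interactions fell into several shapes, and genes raised in OE alone held the most 2-fold interactions. PEG raised 829 genes 2-fold in OE without a 2-fold change in WT, and the interaction was called above 0 in 782 of them, 539 at 2-fold. PEG raised 735 genes 2-fold in WT without a 2-fold change in OE, and the interaction was called below 0 in 675, 360 at 2-fold. Another 420 genes were lowered 2-fold in OE without a 2-fold change in WT, with 402 interactions called below 0, and 163 were lowered in WT without a 2-fold change in OE, with 150 called above 0. These classes and the interaction come from the same libraries, so the counts describe shapes and support nothing further. A PEG effect short of 2-fold is not the absence of an effect, and the median PEG effect in WT was 0.36 in the first class.

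In the shape raised in OE but not 2-fold in WT, Potri.003G068900 had 110.8, 113.8 and 115.4 FPKM in OE PEG and 3.65, 3.65 and 3.26 in OE without PEG. It had 0.573, 0.737 and 0.401 FPKM in WT PEG and 0.614, 0.479 and 0.622 in WT without PEG. The 3 OE PEG libraries lay far above the other 9, and the 2 WT groups overlapped. The interaction was 4.67 (SE 0.11, limma adjusted p = 9.3e-13). The second gene of this shape, Potri.014G047000, averaged 26.1 ± 1.65 FPKM in OE PEG and 0.348 ± 0.0354 in OE without PEG, and 0.114 ± 0.0596 in WT PEG and 0.276 ± 0.0721 in WT without PEG (SD, n = 3 each, as for all group values). Its interaction was 4.52 (SE 0.12, limma adjusted p = 1.4e-12). Both groups of WT libraries held only 2 to 11 reads of it, and the interaction was 6.70 (SE 0.32) with a pseudocount of 0.1 and 7.45 (SE 0.66) with voom. Potri.003G068900 had 4.997 (SE 0.22) and 5.07 (SE 0.37) under these settings, so the order of the 2 genes turned round.

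The shape raised in WT but not 2-fold in OE was led by Potri.004G069101, with 0.536, 1.51 and 1.01 FPKM in OE PEG and 1.29, 1.78 and 0.799 in OE without PEG. It had 25.2, 21.4 and 20.7 FPKM in WT PEG and 0.307, 0.279 and 0.377 in WT without PEG. The 2 OE groups overlapped, and the OE change was -0.19 (limma adjusted p = 0.34, not called), while WT rose by 4.14 (adjusted p = 2.5e-11). This is a gene of 240 bp with 4 to 12 reads in each OE library and 2 or 3 in each WT library without PEG. Its interaction was -4.33 with a pseudocount of 1, -6.09 (SE 0.42) with 0.1 and -6.14 (SE 0.73) with voom. Potri.015G101500 averaged 5.29 ± 0.724 FPKM in OE PEG and 6.95 ± 1.20 in OE without PEG, against 28.7 ± 0.155 in WT PEG and 1.29 ± 0.687 in WT without PEG. Absent PEG, OE was 1.83 log2 units above WT (limma adjusted p = 2.4e-07), and under PEG it was 2.25 below (-2.25, adjusted p = 1.2e-08).

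Among genes that only OE lowered 2-fold, Potri.010G250300 had 3.86, 4.63 and 5.12 FPKM in OE PEG and 18.3, 20.0 and 17.9 in OE without PEG. It had 25.9, 27.9 and 26.7 FPKM in WT PEG and 14.1, 12.7 and 14.1 in WT without PEG. No group overlapped another. The gene fell by 1.84 in OE and was raised by 0.93 in WT, short of 2-fold, for an interaction of -2.76 (SE 0.11, limma adjusted p = 6.5e-11). Potri.001G176000 averaged 3.17 ± 0.247 FPKM in OE PEG and 36.5 ± 0.165 in OE without PEG, against 39.1 ± 2.32 in WT PEG and 52.3 ± 2.86 in WT without PEG, with an interaction of -2.76 (SE 0.08, limma adjusted p = 2.7e-12).

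Among genes that only WT lowered 2-fold, Potri.011G049900 had 156.2, 153.7 and 149.4 FPKM in OE PEG and 110.8, 116.7 and 116.3 in OE without PEG. It had 19.0, 19.0 and 21.1 FPKM in WT PEG and 122.1, 112.6 and 117.7 in WT without PEG. The genotypes overlapped without PEG, where their difference was -0.04 (limma adjusted p = 0.53, not called). Under PEG the gene was 2.90 log2 units higher in OE (adjusted p = 1.9e-15), with a rise of 0.42 in OE, while it fell by 2.52 in WT. Potri.008G158200 averaged 20.2 ± 1.57 FPKM in OE PEG and 10.3 ± 0.704 in OE without PEG, against 14.4 ± 0.391 in WT PEG and 56.4 ± 0.828 in WT without PEG. The product of its single effects would have been 2.03 FPKM in OE PEG, and the interaction was 2.80 (SE 0.08, limma adjusted p = 3.3e-12).

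PEG raised 853 genes 2-fold in both genotypes, and here most called interactions lay below 0, at 387 against 177 above. At 2-fold there were 183 below and 69 above. Potri.005G185000 averaged 59.2 ± 1.10 FPKM in OE PEG and 15.1 ± 1.36 in OE without PEG, against 77.8 ± 1.28 in WT PEG and 0.615 ± 0.104 in WT without PEG. Under PEG OE differed from WT by -0.39 on the log2 scale (limma adjusted p = 5.8e-05, called), while without PEG OE stood 3.32 above WT. The product of the single effects on FPKM + 1 would have been 784 FPKM, a value that depends on the pseudocount because WT without PEG lay under 1 FPKM. The interaction was -3.71 (SE 0.09, limma adjusted p = 7.1e-13), and -4.81 (SE 0.12) with a pseudocount of 0.1.

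Potri.016G057600 had the same shape with overlapping baselines. It had 6.12, 5.12 and 4.70 FPKM in OE PEG and 0.0817, 0 and 0.0724 in OE without PEG, against 91.3, 89.1 and 91.3 in WT PEG and 0, 0.222 and 0 in WT without PEG. The groups without PEG overlapped at 0 to 10 reads per library, and the WT PEG libraries lay above all others. Its interaction was -3.84 (SE 0.13, limma adjusted p = 1.9e-11) with a pseudocount of 1. With a pseudocount of 0.1 it was -4.06 (SE 0.51), and with voom -4.64 (SE 0.98).

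On the other side of this shape, the 2 leading genes changed with the handling of values near 0. Potri.011G158100 had 43.7, 43.3 and 42.3 FPKM in OE PEG and 0.877, 0.915 and 0.972 in OE without PEG, against 0.888, 1.10 and 1.14 in WT PEG. It had no read in any of the 3 WT libraries without PEG, so that its interaction depends on the pseudocount and is no bound. It was 3.49 (SE 0.10, limma adjusted p = 3.4e-12) with a pseudocount of 1, 1.90 (SE 0.20, adjusted p = 1.9e-06) with 0.1, and -1.29 (SE 0.57, adjusted p = 0.051) with limma voom on recovered reads. Potri.019G006900 averaged 37.4 ± 2.05 FPKM in OE PEG and 0.296 ± 0.0364 in OE without PEG, against 2.56 ± 0.531 in WT PEG, with 0, 0 and 4 reads in WT without PEG. Its interaction was 3.13 (SE 0.15, limma adjusted p = 4.2e-10) with a pseudocount of 1 and 1.00 (SE 0.73, adjusted p = 0.24) with voom.

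PEG lowered 94 genes 2-fold in both genotypes, and their interactions went both ways, with a median of -0.14 and quartiles of -0.46 and 0.22. They were called above 0 for 21 and below for 40, and at 2-fold for 3 and 10. Potri.013G128800 averaged 30.5 ± 2.62 FPKM in OE PEG and 149.9 ± 10.1 in OE without PEG, against 51.9 ± 0.693 in WT PEG and 665.1 ± 13.7 in WT without PEG. It was thus already lower in OE without PEG, and fell by 2.26 in OE and by 3.65 in WT, for an interaction of 1.39 (SE 0.08, limma adjusted p = 2.4e-09). Potri.005G252250 was the other leading gene above 0, with 40.9 ± 2.54 FPKM in OE PEG and 143.7 ± 1.39 in OE without PEG, against 12.5 ± 2.16 in WT PEG and 103.1 ± 1.61 in WT without PEG.

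Below 0, Potri.001G178300 had 5.56, 6.84 and 6.41 FPKM in OE PEG and 57.4, 63.9 and 68.5 in OE without PEG. It had 15.9, 14.8 and 15.5 FPKM in WT PEG and 35.6, 35.7 and 36.7 in WT without PEG, and no group overlapped another. OE was highest without PEG and lowest with it, and the interaction was -1.97 (SE 0.10, limma adjusted p = 6.5e-10). Potri.010G091800 had the same order, at 0.765 ± 0.269 FPKM in OE PEG and 10.3 ± 0.687 in OE without PEG, against 2.34 ± 0.121 in WT PEG and 6.09 ± 0.390 in WT without PEG.

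Of the 19519 genes without a 2-fold PEG effect in either genotype, 5162 still had an interaction called above 0 and 5050 below, but at 2-fold there were only 191 above and 318 below. In the 4 named here PEG acted in opposite directions, each effect under 1 on the log2(FPKM + 1) scale. The opposite directions follow from the class, since effects that small can differ by 1 or more only with opposite signs. Potri.002G196700 had 65.0, 65.8 and 69.8 FPKM in OE PEG and 129.2, 125.6 and 141.6 in OE without PEG, against 105.8, 106.6 and 99.6 in WT PEG and 53.8, 52.0 and 54.2 in WT without PEG. It fell by 0.97 in OE and rose by 0.95 in WT, for an interaction of -1.92 (SE 0.07, limma adjusted p = 1.5e-11). Potri.010G152000 averaged 1.99 ± 0.311 FPKM in OE PEG and 4.89 ± 0.552 in OE without PEG, against 22.5 ± 0.926 in WT PEG and 11.1 ± 0.945 in WT without PEG. In the opposite direction, Potri.001G120500 averaged 16.8 ± 1.52 FPKM in OE PEG and 8.85 ± 0.419 in OE without PEG, against 5.46 ± 0.700 in WT PEG and 10.8 ± 0.289 in WT without PEG. Potri.018G084100 averaged 16.7 ± 1.06 and 8.39 ± 0.453 FPKM in OE with and without PEG, against 4.23 ± 0.859 and 7.89 ± 0.472 in WT with and without PEG.

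**Figure D3:**
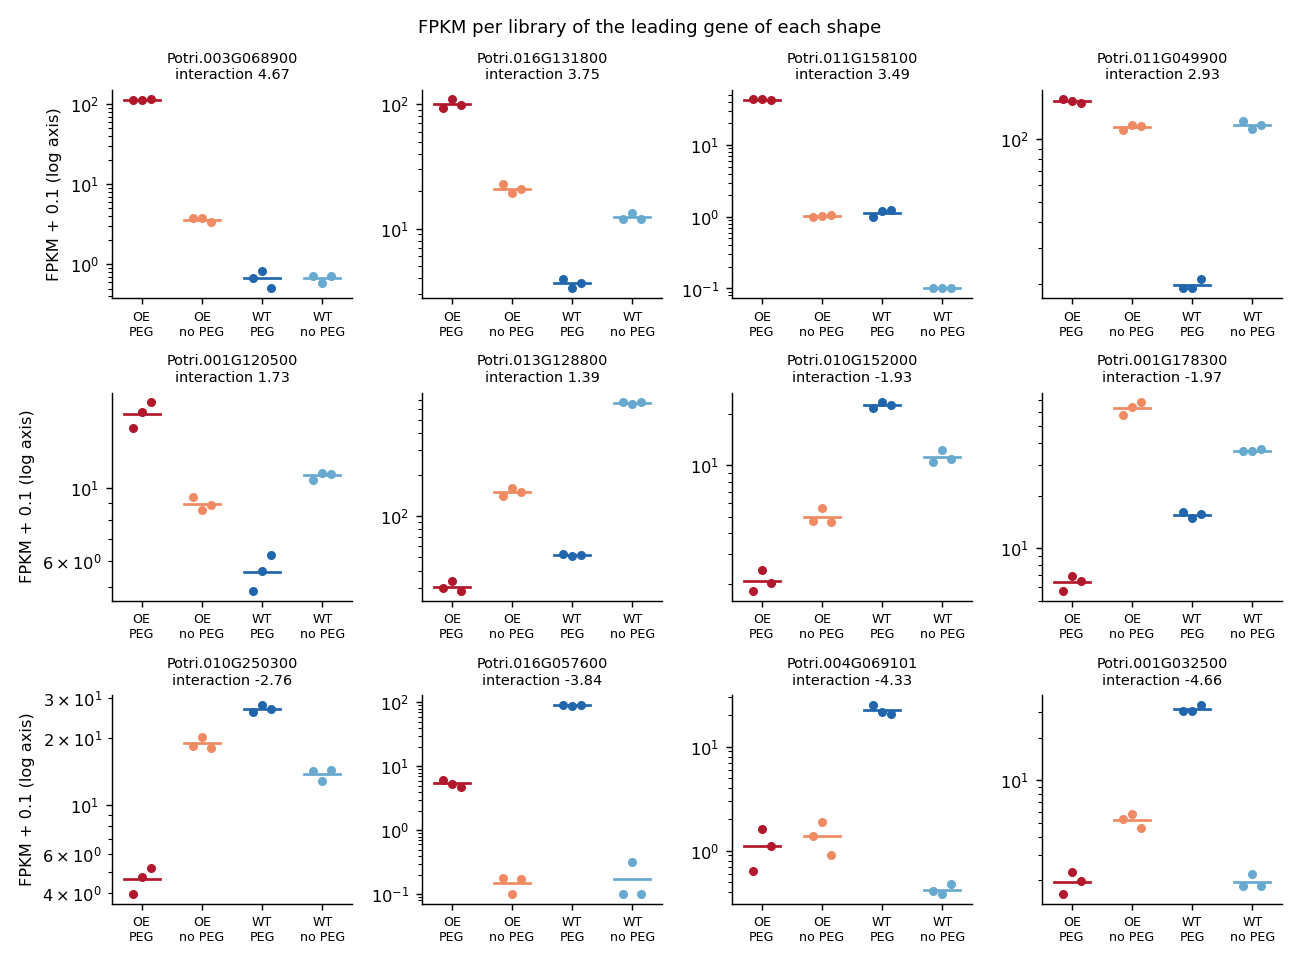
FPKM + 0.1 on log axes (vertical, a range of its own per gene) in each of the 12 libraries, for the gene that, among those meeting the naming rule, had the largest interaction of its shape and direction with a pseudocount of 1; points are libraries, lines are group means, and panels run from the highest interaction (4.67) to the lowest (-4.66). In the first panel the 3 OE PEG libraries stand far above the other 9, and in the last the 3 WT PEG libraries do.

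A second view starts from the single effects, measured against WT without PEG. OE without PEG was 2-fold higher than WT and PEG raised WT 2-fold for 534 genes. In those genes the transgene alone multiplied FPKM + 1 by a median of 2.64 and PEG alone by 4.15, and both together multiplied it by 7.82, while the median of the products was 11.3. The interaction was called below 0 for 380 of the 534 (71.2%), above 0 for 77 (14.4%) and not called for 77, with a median of -0.94 and quartiles of -1.60 and -0.19. The joint level lay between the larger single effect and the product in 273 genes, at or under the larger single effect in 154 and at or above the product in 107.

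Lowered genes mirrored this on a small scale. For the 42 genes that were 2-fold lower in OE without PEG and lowered 2-fold by PEG in WT, 38 interactions (90.5%) were called above 0 and 1 below, with a median of 1.17. The sum of their single effects had a median of -2.56 and the joint effect a median of -1.49. Where PEG raised WT 2-fold but OE and WT differed by less than 2-fold without PEG, 699 of 1071 genes (65.3%) had a called interaction below 0 and 100 above. Where OE was higher and PEG did not change WT 2-fold, the called interactions of 335 genes were 160 above 0 and 116 below.

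The interaction is the joint effect less both single effects, so it shares with them the WT PEG libraries and the libraries without PEG of both genotypes. Sorting genes by high or low single effects can by itself pull the interaction the other way. These counts are therefore a description and carry no test. With a pseudocount of 0.1, 1126 genes were higher by both single effects, with 742 interactions called below 0 and 116 above.

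**Figure D4:**
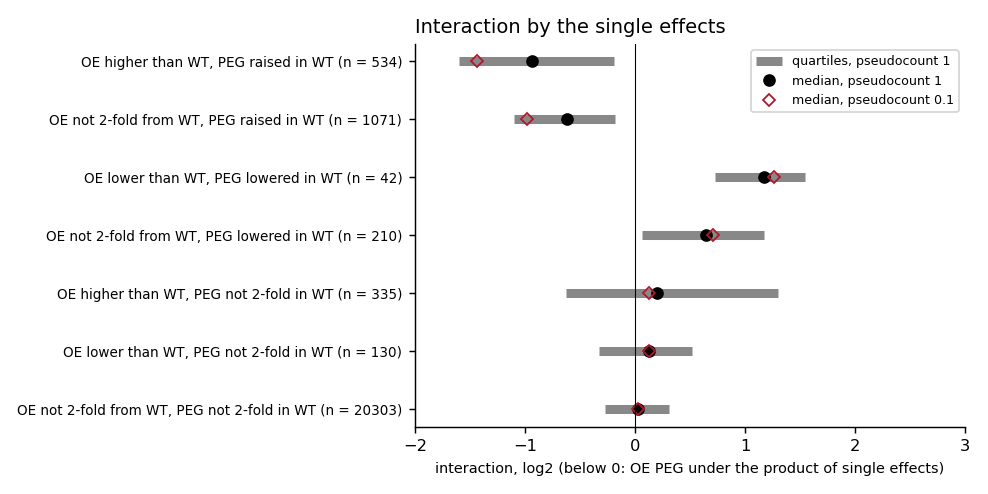
Interaction in log2 units (horizontal axis) by the 2-fold calls of the single effects (rows, with the number of genes), for classes of at least 40 genes; bars span the quartiles, filled circles are medians with a pseudocount of 1 and open diamonds medians with 0.1. The class raised by both single effects has a median of -0.94 and the class lowered by both a median of 1.17, while the class without 2-fold single effects has a median of 0.03.

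Some interactions cannot be removed by any monotone change of scale, because the order of the levels itself turned round. PEG effects were called in both genotypes for 10179 genes, and in 1323 of them (13%) PEG raised the gene in OE and lowered it in WT, while in 1455 (14.3%) it did the opposite. The genotype difference was called on both media for 9318 genes. OE was higher than WT under PEG and lower without it in 1050 (11.3%), and lower under PEG and higher without it in 1700 (18.2%). All of these were also called as interactions, which follows from the definition, since called effects of opposite sign add up in the interaction. Of the 12873 called interactions, 4304 (33.4%) were crossed in at least one of the 2 ways, 1224 in both.

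The crossed effects were mostly small. For genes that PEG raised in OE and lowered in WT, the median effects were 0.30 in OE and -0.32 in WT. At 2-fold in both genotypes there were 8 such genes and 19 of the opposite kind. In 33 genes OE was 2-fold lower than WT under PEG and 2-fold higher without it, and in none was it 2-fold higher under PEG and 2-fold lower without it, although 1050 crossed that way by the limma call alone. Among the 2011 interactions called at 2-fold, 1177 (58.5%) were crossed.

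Of the genes raised in OE and lowered in WT, Potri.016G131800 had the largest interaction among those that met the rule for naming, with 92.7, 109.4 and 97.5 FPKM in OE PEG and 22.5, 19.3 and 20.9 in OE without PEG, against 3.85, 3.21 and 3.54 in WT PEG and 11.7, 13.2 and 11.8 in WT without PEG. No group overlapped another, and OE was higher on both media. It was raised in OE and fell by 1.54 in WT, for an interaction of 3.75 (SE 0.11, limma adjusted p = 2.3e-12). Potri.016G130700 followed the same order, at 188.1 ± 5.06 FPKM in OE PEG and 37.8 ± 1.18 in OE without PEG, against 10.8 ± 0.443 in WT PEG and 27.1 ± 1.92 in WT without PEG.

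In the opposite direction, Potri.001G032500 had 1.48, 2.15 and 1.87 FPKM in OE PEG and 5.25, 5.66 and 4.55 in OE without PEG, against 30.9, 30.5 and 33.8 in WT PEG and 1.69, 2.095 and 1.70 in WT without PEG. The OE PEG libraries overlapped the WT libraries without PEG, and the product of the single effects would have been 70.1 FPKM. Potri.005G014300 averaged 3.66 ± 0.406 FPKM in OE PEG and 9.88 ± 0.640 in OE without PEG, against 28.5 ± 2.12 in WT PEG and 2.66 ± 0.318 in WT without PEG. Potri.002G022600 fell by 2.50 in OE and rose by 1.62 in WT, with 1.38 ± 0.501 FPKM in OE PEG and 12.3 ± 1.76 in OE without PEG, against 14.8 ± 0.746 in WT PEG and 4.18 ± 0.822 in WT without PEG. In all 3 genes OE was lower than WT under PEG and higher without it.

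Additivity can also be asked of the FPKM values themselves, where an additive gene shows the sum and not the product of the single changes. The sign of the departure in FPKM was that of the log2 interaction in 6286 of the 6300 genes called above 0 (99.8%) and in 6343 of the 6573 called below 0 (96.5%). These are counts of signs alone, and of the 14 and 230 exceptions 5 and 144 had a departure in FPKM of over 2 standard errors. Among the 534 genes raised by both single effects, the departure in FPKM was above 0 in 292 (54.7%). Of the 380 of them with a log2 interaction called below 0, 141 (37.1%) lay above 0 in FPKM, which is 141 of the 230 such exceptions, so that OE under PEG held more transcript than the sum of the single changes and less than their product.

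Size on the 2 scales differed as well. Potri.013G128800, whose interaction was 1.39, departed from the sum by 494 FPKM (SE 9.95), and Potri.003G068900, whose interaction was 4.67, departed by 110 FPKM (SE 1.35). Potri.005G252250 had an interaction of 1.17 (SE 0.12, limma adjusted p = 1.4e-06) and a departure of -12.2 FPKM (SE 2.28), the only one of the 895 genes at 2-fold above 0 whose departure in FPKM was below 0. Without PEG it had more transcript in OE, and more of it was lost under PEG there in FPKM, while the ratio lost was larger in WT.

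Near 0 the pseudocount decides how large a change can appear, and 2010 of the 22640 tested genes had a group mean under 1 FPKM. Among them a pseudocount of 1 called 515 interactions above 0 and 638 below, and a pseudocount of 0.1 called 359 and 728. Both pseudocounts gave 974 genes the same call and 8 genes opposite calls, and 171 (14.8%) lost the call with 0.1. Among the 20630 genes with every group mean at 1 FPKM or more, 172 of the called interactions (1.47%) lost the call and none turned round. The median standard error of the interaction near 0 was 0.16 with a pseudocount of 1 and 0.31 with 0.1.

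Most of the lost 2-fold calls lay above 0. Of the 276 near-0 genes at 2-fold above 0, a pseudocount of 0.1 called 224 in the same direction (81.2%). Fitting the recovered reads with limma voom, which adds 0.5 of a read in place of 1 FPKM, again gave 188 a call above 0 (68.1%) and gave 6 a call below it. Of the 267 near-0 genes at 2-fold below 0, both called 264 (98.9%). In 1108 of the 2010 genes WT without PEG was the lowest group, and their median interaction was -0.19 with a pseudocount of 1 and -0.73 with 0.1. At 2-fold the pseudocount of 0.1 called 294 near-0 genes above 0 and 594 below, against 276 and 267 with 1.

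**Figure D5:**
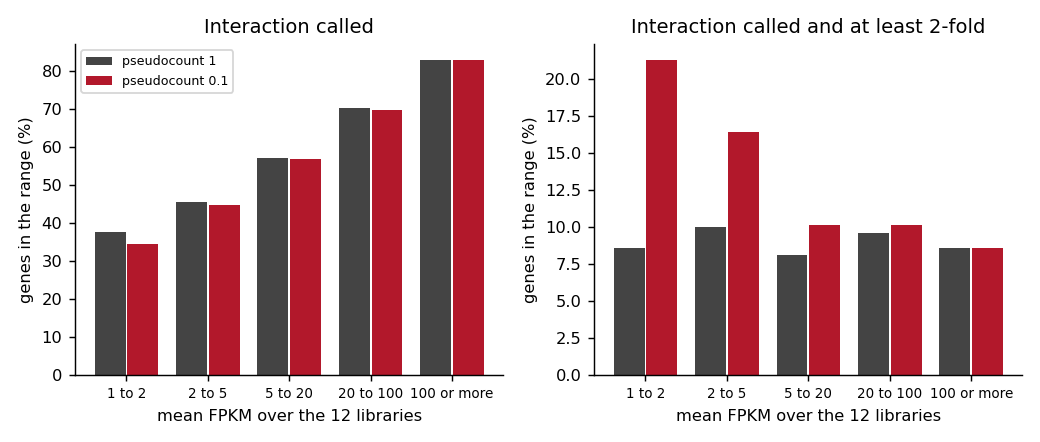
Percent of genes (vertical axis) with a called interaction (left) and with a called interaction of at least 2-fold (right), by mean FPKM over the 12 libraries (horizontal axis), with pseudocounts of 1 (dark) and 0.1 (red). The share called hardly differs between the pseudocounts, while at a mean FPKM of 1 to 2 the 2-fold share is 8.59% with 1 and 21.3% with 0.1.

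The size of the named interactions changed with the pseudocount too where a group was low. Potri.001G032500 was at -4.66 with a pseudocount of 1 and -5.50 with 0.1, and Potri.004G069101 at -6.09 lay below it with 0.1. Potri.002G022600 was at -4.94, Potri.015G101500 at -4.86 and Potri.010G091800 at -2.30 with 0.1, against -4.12, -4.07 and -1.60 with 1. All 5 kept their direction and call, which the naming rule required of them.

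Expression level and gene length moved with the interaction. The share of genes called was 37.5% at a mean FPKM of 1 to 2 and 82.9% at 100 or more, and the 2-fold share was 8.59% and 8.54%. Among called interactions, 45.4% lay above 0 in the lowest of these ranges and 69.1% in the highest. By recovered length, 69.9% of called interactions lay above 0 among the genes of the shortest length class, those under 1219 bp, and 18.7% among the longest of the 4 equal classes, those of at least 2813 bp. The median interaction was 0.22 in the shortest class and -0.21 in the longest. With the trend of each library on length removed, 55.9% of called interactions lay above 0. Under that setting 10031 of the 12873 called interactions (77.9%) stayed called in the same direction and 60 were called in the opposite one. Of the 2011 genes called 2-fold, 1999 stayed called in the same direction, at any size. The 2-fold counts under that setting were 819 above 0 and 1143 below.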

How the data were processed

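The authors deposited FPKM values to 4 decimals for 34699 gene identifiers, with 1 column per library named by its title. The submitters' processing notes list HTSeq 0.6.0, HISAT2 2.1.0 and Bowtie2 2.2.3 without saying what each did. Genome build, annotation, strandedness and the treatment of reads from near-identical gene copies are not given in these sources, so such copies are uncertain.

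Libraries were grouped by title. From the FPKM, log2(FPKM + 1) was fitted with limma 3.58.1 in R 4.3.3, with 4 group means, a mean-variance trend, 8 residual degrees of freedom and two-sided moderated statistics. The minimum mean FPKM of 1 left out 12059 genes. Benjamini-Hochberg adjustment ran over all tested genes, and a call needed an adjusted p under 0.05. Fold changes on this scale understate changes of weakly expressed genes. Whole reads and gene lengths were recovered for 100.0% of tested genes from the steps between low FPKM, using Python 3.11.15 and NumPy 2.4.6. Every value lay within a tolerance of a whole read that grew with the read number. The tolerance was not required to stay under 0.25 of a read in every library. Whether a read is a mate or a pair is not given. For voom, reads were scaled by TMM factors that trimmed 30% of ratios and 5% of levels. Recovery and fit were tested on simulated data.

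Genes were named by rule. Each was called 2-fold with pseudocounts of 1 and 0.1 in the same direction, had a mean FPKM of at least 5 in its highest group, and had all 9 PEG differences of one genotype above all 9 of the other, which 1653 of 2011 did. The 2 largest per shape and direction are given, of 3 that the rule allows, since identifiers have no names, and also the 2 strongest crossed genes per direction. The question, rule and alternatives were chosen with earlier results of these data known. The alternatives changed the pseudocount, filter, scaling, variance model, unit, length trend, replicate block and libraries.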

Additional observations from a re-analysis of the deposited data

Results flagged for a closer look

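In 12873 genes the PEG response of OE differed from that of WT by the limma test of the interaction itself. The genes named above are singled out for the same reason, each with its interaction in log2 units. Above 0 these were Potri.003G068900 with 4.67, Potri.014G047000 with 4.52, Potri.016G131800 with 3.75, Potri.016G130700 with 3.53, Potri.011G158100 with 3.49, Potri.019G006900 with 3.13, Potri.011G049900 with 2.93, Potri.008G158200 with 2.80, Potri.001G120500 with 1.73, Potri.018G084100 with 1.69, Potri.013G128800 with 1.39 and Potri.005G252250 with 1.17. Below 0 they were Potri.001G032500 with -4.66, Potri.004G069101 with -4.33, Potri.005G014300 with -4.24, Potri.002G022600 with -4.12, Potri.015G101500 with -4.07, Potri.016G057600 with -3.84, Potri.005G185000 with -3.71, Potri.010G250300 with -2.76, Potri.001G176000 with -2.76, Potri.001G178300 with -1.97, Potri.010G152000 with -1.93, Potri.002G196700 with -1.92 and Potri.010G091800 with -1.60. Groups of 3 libraries are too small for a test of single outlying libraries.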

How the results depend on the processing

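Of 599 values of the 25 named genes over 24 alternatives, 597 kept direction and call. The naming rule already required a 2-fold call with a pseudocount of 0.1 and all 9 differences apart. That setting could therefore change none of the calls, and the rule favoured agreement under the others. With voom Potri.019G006900 lost its call (1.00, adjusted p = 0.24) and Potri.011G158100 turned to -1.29 (adjusted p = 0.051), both with libraries at 0 reads in WT without PEG. With a pseudocount of 0.1, 1780 genes lay 2-fold below 0, OE PEG stood alone at the bottom in 384, and 1126 genes were raised by both single effects, 742 of them with a call below 0 and 116 above. With voom 1811 genes lay 2-fold below 0, with WT PEG highest in 1135 and OE PEG alone at the bottom in 358, and 1173 were raised by both, 779 with a call below 0. With a mean FPKM of at least 5, which tests fewer genes, 577 lay 2-fold above 0, OE PEG was highest in 503 and stood alone in 385, and WT PEG was highest in 473 below 0. The share of squared deviations taken by the interaction was 12.2% with a pseudocount of 0.1, 12.9% with 0.5, with a mean FPKM of at least 5 and with the length trend removed, 13.9% with equal FPKM sums, 14.6% with quantile normalization and 11.8% with voom. The cause of these shifts was not tested.

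Leaving out 1 library at a time gave 12133 to 12580 calls, 5828 to 6297 above 0 and 6236 to 6443 below, with 875 to 914 and 1109 to 1151 at 2-fold. OE PEG stood alone at the top in 607 to 638, was highest in 762 to 798 and stood alone at the bottom in 202 to 214, and WT PEG was highest in 732 to 757. Crossed PEG effects numbered 2476 to 2703 and crossed genotype effects 2492 to 2673. Genes raised by both single effects numbered 518 to 539, with 365 to 389 called below 0 and 72 to 80 above, and the interaction took 13.2% to 13.4%.

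Replicate numbers are shared between groups, but none of 18 same-numbered pairs of libraries deviated together with a correlation over 0.1 (-0.071 to 0.1), so the numbers were not read as pairing. With the replicate block 12713 interactions were called, 6235 above 0 and 6478 below. Counts of gene lists were not run, since identifiers could not be matched to names.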
